A study of Mus musculus with 8 samples.

Results

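CC chemokine ligands are small secreted proteins that attract leukocytes, and 9 of their genes, Ccl2, Ccl5, Ccl7, Ccl8, Ccl9, Ccl17, Ccl20, Ccl25 and Ccl28, were followed in SV-LECs exposed to TGFβ1. They were taken by gene symbol from the deposited count table of 55471 genes, and they make up 9 of 24 mouse CC chemokine ligand genes looked for in it. All 9 passed the filter on low counts and were among the 13818 genes tested. SV-LECs are a line of mouse lymphatic endothelial cells from mesenteric adventitial tissue, immortalized with SV40. One group of 4 libraries came from cells without added cytokine (untreated) and the other group of 4 from cells given 10 ng/ml TGFβ1 over 72 h (TGFβ1-treated). The study describes the 4 samples of a group as technical replicates of 1 cell line, so errors and p-values cover technical spread and not the spread between independent cultures. The search for chemotactic factors made by TGFβ1-treated SV-LECs was the purpose of the comparison.

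Chemokines of the CC type carry a pair of neighbouring cysteines close to the start of the mature protein, and they signal through G protein-coupled receptors of the Ccr family. Lymphatic endothelium is known for the ligands of Ccr7, Ccl21 and Ccl19, which draw dendritic cells and T cells into lymphatic vessels and nodes. Ccl2 and Ccl7 are monocyte chemoattractants, while Ccl8 in mice signals mainly through Ccr8. Ccl5 and Ccl9 act through inflammatory receptors such as Ccr1, and Ccl17, Ccl20, Ccl25 and Ccl28 are known mainly as ligands of Ccr4, Ccr6, Ccr9 and Ccr10. The codons of the cysteine pair that gives the family its name are shown in capitals below, with 12 bases of coding sequence on either side, read 5′ to 3′ from the GENCODE M21 annotation of GRCm38.
Ccl2: gccccactcaccTGCTGCtactcattcacc
Ccl7: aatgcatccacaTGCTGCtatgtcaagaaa
Ccl8: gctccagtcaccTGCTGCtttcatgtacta
Ccl5: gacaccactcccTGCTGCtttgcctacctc
Ccl9: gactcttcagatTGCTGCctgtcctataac
Ccl17: gtaggccgagagTGCTGCctggattacttc
Ccl20: agcaactacgacTGTTGCctctcgtacata
Ccl25: gcctttgaagacTGCTGCctgggttaccag
Ccl28: atggcctccagcTGTTGCactgaggtgtct

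Both cysteines were encoded by TGC in 7 of the genes, whereas Ccl20 and Ccl28 used TGT for the first. The proteins encoded by the longest annotated coding sequence of each gene were between 91 residues long in Ccl5 and 228 in Ccl25. The cysteine pair began at residue 114 in this form of Ccl25, and between residues 30 (Ccl28) and 57 (Ccl9) in the other members. Which form the cells made was not tested. Ccl7 and Ccl8 were the most alike, with 48.5% of the columns of their alignment identical, and Ccl7 and Ccl25 the least, with 11.4%, a share that is lowered by the length of the Ccl25 protein since all columns of the alignment are counted. Even the closest pair differed enough in nucleotide sequence that no stretch of 75 bases, the length of a read, was shared between transcripts of different members.

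Each library held between 18952504 and 26386941 counted reads, and levels are given as CPM, the reads of a gene relative to the normalized library size, on which 3 counts correspond to 0.113 to 0.162 CPM. Differences were tested with edgeR's likelihood ratio test, and the false discovery rate (FDR) of Benjamini and Hochberg was taken over all genes tested with a threshold of 0.05. The lymphatic markers Prox1, Lyve1 and Reln and the endothelial markers Cdh5, Tie1, Emcn and Erg had at most 3 counts in every library, so these defining markers of the labelled cell type were not seen at this depth. The summed level of the 6 lymphatic markers, 344 to 381 CPM in untreated and 337 to 348 CPM in TGFβ1-treated libraries, came almost wholly from Pdpn (mean 341 and 312 CPM), while Flt4 was higher (log2 fold change 0.44, edgeR FDR = 5.64e-13) and Mmrn1 had 9 to 15 reads in untreated and 0 to 2 in TGFβ1-treated libraries. The 10 leukocyte markers together went from 15.8 to 18.8 CPM in untreated to 31.7 to 33.9 CPM in TGFβ1-treated libraries. The leukocyte markers Ptprc, Adgre1, Itgam, Cd3e and Itgax were at 3 counts or fewer throughout, and 3 others of that list were significantly higher. The sums were 16.9 to 19.1 and 25.7 to 28.8 CPM for 8 endothelial markers, 3290.1 to 4629 and 5565 to 6699.7 CPM for 6 fibroblast markers, and 34.2 to 40.6 and 38.0 to 45.1 CPM for 5 epithelial markers. Of the 3 endothelial markers tested, Kdr was significantly higher (mean 11.6 and 22.1 CPM, log2 fold change 0.93). Egfl7 was significantly lower with overlapping groups (mean 5.82 and 4.78 CPM, log2 fold change -0.29), and Tek was not called. Pecam1 had 1 to 3 reads in untreated and 3 to 5 in TGFβ1-treated libraries. Col1a1 carried the fibroblast sum, and of the 5 fibroblast markers tested it and Pdgfrb were significantly higher and Pdgfra, Dcn and Thy1 significantly lower, with a median log2 fold change of -1.07. Krt14, which was not called, carried the epithelial sum, while Krt8 and Krt18 were significantly higher from at most 12 reads in an untreated library. Krt8 and Krt18 passed the filter on low counts only through the TGFβ1-treated libraries. The part of these marker changes in the chemokine results was not tested.

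Among the 9 members, 6 were called higher after TGFβ1, although the call of Ccl8 was lost in several alternatives. Ccl2, Ccl5, Ccl7, Ccl8, Ccl9 and Ccl17 were significantly higher in TGFβ1-treated SV-LECs, Ccl20 and Ccl28 were significantly lower, and Ccl25 did not pass the threshold. The 6 higher genes of 9 stand beside 37.6% higher and the 2 lower genes beside 38.0% lower among all genes tested, and 8 called in either direction beside 75.6%, so changes at this threshold were common in these libraries. A log2 fold change above 1 with a significant call was found in 5 of 9 members and in 10.9% of all genes tested. Ccl17, one of the 5, passed the filter on low counts only through the TGFβ1-treated libraries, and Ccl28 only through the untreated ones, so these counts and the median below are a description. The median log2 fold change was 1.15 over the 9 members and -0.01 over all genes tested. In none of the 9 genes did the 2 groups of libraries overlap, whereas the groups were apart in 69.8% of all genes tested, 34.7% with higher and 35.1% with lower values after TGFβ1. An exact two-sided permutation test over the libraries gave p = 0.0286 for each member, which is the smallest value that 4 against 4 libraries allow. In RNA from whole cultures, more cells making a transcript and more transcript per cell cannot be told apart.

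**Figure D1:**
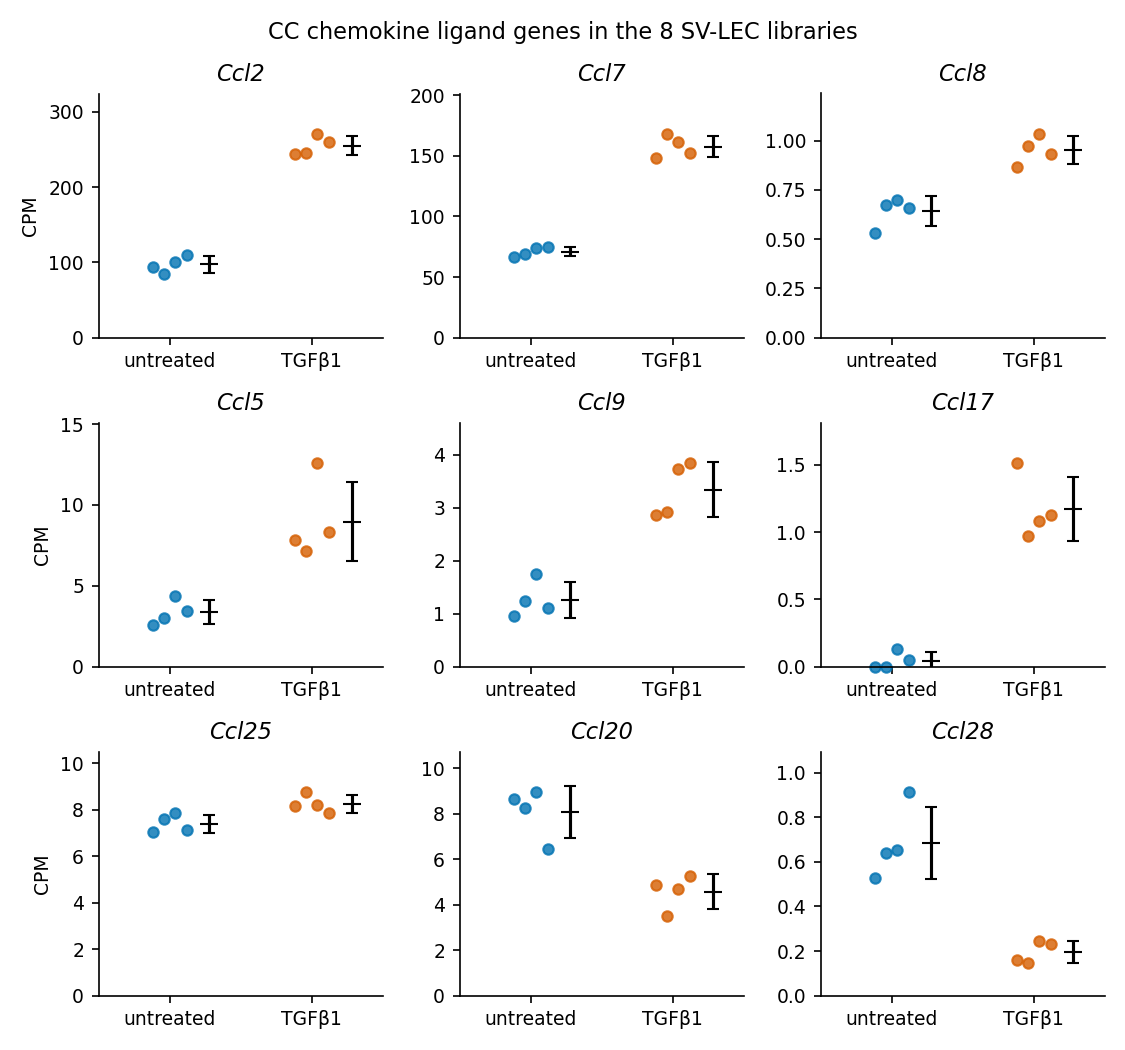
Level of each of the 9 CC chemokine ligand genes in CPM (linear axis from 0, a scale of its own for each gene) in the 4 untreated and 4 TGFβ1-treated libraries. Each point is 1 library and the bars beside the points are the mean and SD of 4 libraries. The groups do not overlap for any gene, but Ccl25 is separated only by the step from 7.85 to 7.87 CPM.

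**Figure D2:**
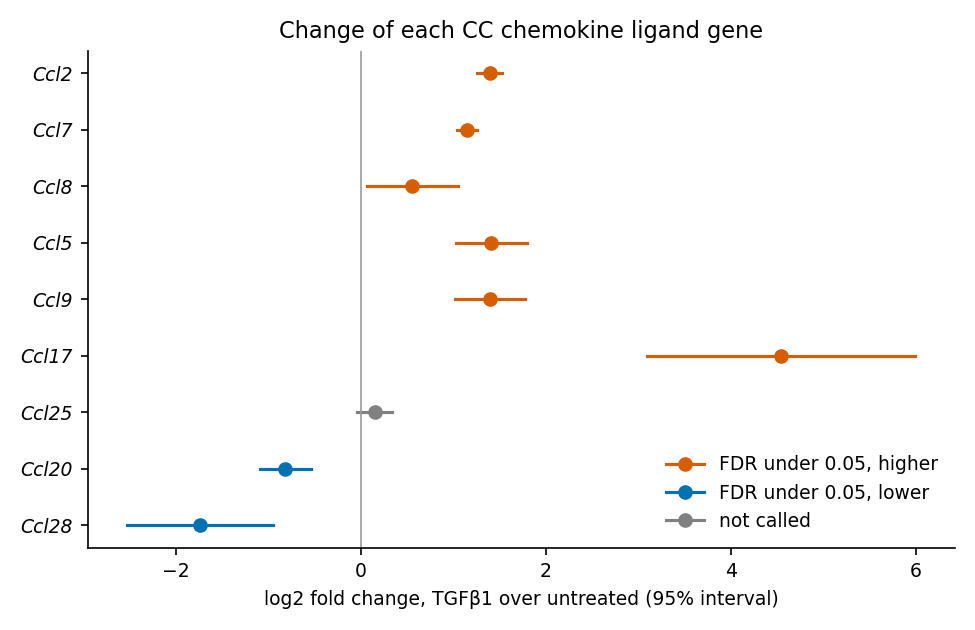
Log2 fold change of each member, TGFβ1-treated over untreated, as a point with its 95% interval from edgeR's standard error. The point of Ccl17 depends on the prior count since its untreated libraries held 0 to 3 reads. Ccl2, Ccl5, Ccl7 and Ccl9 lie between 1.15 and 1.41, Ccl8 is lower at 0.56, and Ccl20 and Ccl28 are at -0.82 and -1.74.

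The genes Ccl2, Ccl7 and Ccl8 lie in one stretch of chromosome 11, and Ccl2 and Ccl7 drew most of the CC chemokine reads of these cells. Ccl11 and Ccl12, which lie between Ccl7 and Ccl8, did not pass the filter on low counts. Ccl2 (ENSMUSG00000035385, GRCm38 chr11:82035571-82037453, plus strand) encodes the main attractant of monocytes through Ccr2. Its level was 93.9, 84.2, 101 and 109.6 CPM in the untreated libraries and 243, 246, 270.3 and 261 CPM in the TGFβ1-treated libraries. The lowest treated library was thus more than double the highest untreated one. The mean rose from 97.2 ± 10.8 to 255 ± 12.7 CPM (SD, n = 4), a log2 fold change of 1.39 with a standard error of 0.0689 (edgeR FDR = 4.58e-87). This is a 2.63-fold change, and the 95% interval of the log2 fold change was 1.26 to 1.53.

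Ccl7 (ENSMUSG00000035373, GRCm38 chr11:82045712-82047525, plus strand) begins 8258 bases beyond the end of Ccl2 and encodes a further ligand of Ccr2. It was at 66.4, 68.9, 74.0 and 74.7 CPM in untreated libraries and at 148, 168, 161 and 152 CPM in TGFβ1-treated libraries. The spread within each group was small against the step between them. Its mean rose from 71.0 ± 4.03 to 157 ± 8.81 CPM (SD, n = 4), with a log2 fold change of 1.15 and a standard error of 0.0549 (edgeR FDR = 7.80e-95).

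Ccl8 (ENSMUSG00000009185, GRCm38 chr11:82115185-82116799, plus strand), which in mice signals mainly through Ccr8, lies 67659 bases beyond Ccl7 and drew few reads. The untreated libraries held 11, 18, 16 and 13 reads of Ccl8 and the TGFβ1-treated libraries 16, 20, 21 and 24. These correspond to 0.530, 0.675, 0.698 and 0.659 CPM in untreated and 0.864, 0.973, 1.03 and 0.930 CPM in TGFβ1-treated libraries. The groups were apart, but the step from 0.698 to 0.864 CPM rests on few reads. The log2 fold change of Ccl8 was 0.56 with a standard error of 0.252 and a 95% interval of 0.07 to 1.05 (edgeR FDR = 0.0331). DESeq2 did not call Ccl8, with an adjusted p of 0.167, and the call was also lost in edgeR without composition factors, without the filter on low counts, and when untreated replicate 1 or TGFβ1-treated replicate 2, 3 or 4 was left out. Over all reads, 81 against 58, the ratio was 1.48 with an exact 95% interval of 1.04 to 2.11, which covers counting error only.

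The balance between these neighbours was compared within each library, where library size cancels. For every 100 reads of Ccl2, there were 70.7, 81.8, 73.1 and 68.2 reads of Ccl7 in the untreated libraries. In the TGFβ1-treated libraries, there were 61.0, 68.2, 59.7 and 58.3. The ranges met at 68.2, and the mean log2 ratio differed by -0.25 (exact permutation p = 0.0571, 0.0857 after Benjamini-Hochberg adjustment over 3 ratios). Ccl8 stood at 0.564, 0.802, 0.690 and 0.601 reads per 100 reads of Ccl2 in untreated libraries. After TGFβ1 it stood at 0.355, 0.395, 0.382 and 0.357 reads, without overlap. The mean log2 ratio of Ccl8 to Ccl2 differed by -0.84, with an exact permutation p of 0.0286, the smallest possible, and an adjusted p of 0.0857 that misses the threshold of 0.05.

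Summed over all CC chemokine ligand genes of the table, the level was 184, 178, 203 and 207 CPM in untreated libraries and 422, 442, 467 and 444 CPM in TGFβ1-treated libraries. Ccl2 and Ccl7 together made up 86.0 to 88.9% of this sum in untreated and 92.5 to 93.6% in TGFβ1-treated libraries. The share of Ccl2 was 47.3 to 52.9% in untreated and 55.6 to 58.7% in TGFβ1-treated libraries, while that of Ccl7 was 36.0 to 38.7% and 34.3 to 38.0%. All other CC ligand genes together therefore accounted for a small part of the reads of this family in either group.

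**Figure D3:**
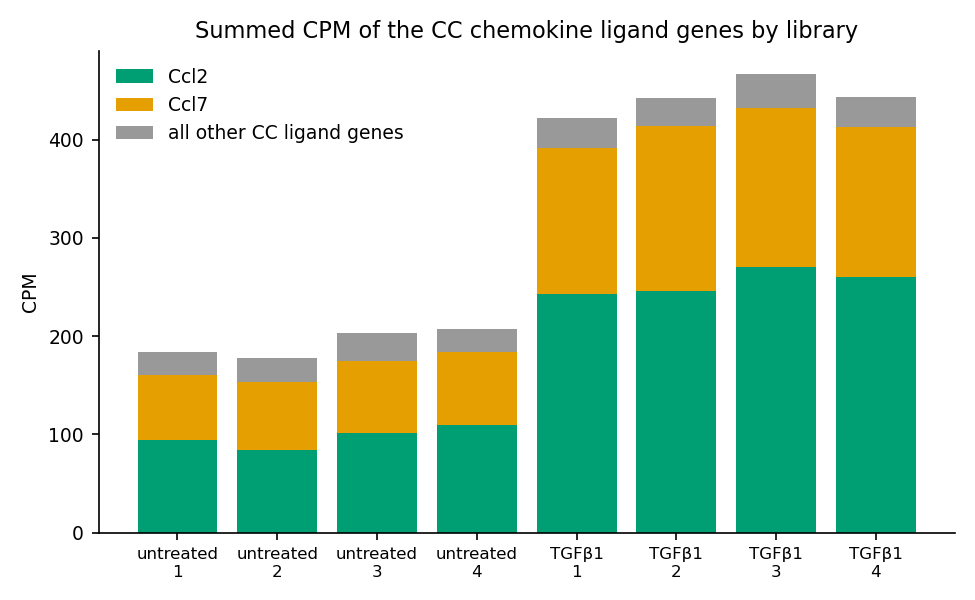
Summed CPM of all CC chemokine ligand genes in each of the 8 libraries, as stacked bars from 0 for Ccl2, Ccl7 and all other CC ligand genes. The sum lies between 178 and 207 CPM in untreated and between 422 and 467 CPM in TGFβ1-treated libraries, and Ccl2 is the largest part in each library.

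Ccl5 and Ccl9 lie on the minus strand of chromosome 11, 1408978 bases beyond Ccl8, and both rose. Ccl5 (ENSMUSG00000035042, GRCm38 chr11:83525778-83530518), also called RANTES, attracts T cells and monocytes. It was at 2.60, 3.04, 4.36 and 3.45 CPM in untreated and at 7.83, 7.15, 12.6 and 8.34 CPM in TGFβ1-treated libraries. The third TGFβ1-treated library stood above the other three, and it did not decide the call. The mean of Ccl5 rose from 3.36 ± 0.752 to 8.97 ± 2.45 CPM (SD, n = 4), a log2 fold change of 1.41 with a standard error of 0.193 (edgeR FDR = 8.37e-13). Without that library, the log2 fold change was 1.21, and leaving out any other library gave values up to 1.57.

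Ccl9 (ENSMUSG00000019122, GRCm38 chr11:83572919-83578636), a ligand of Ccr1 found in rodents, lies 42400 bases from Ccl5. Its level was 0.963, 1.24, 1.75 and 1.11 CPM in untreated and 2.86, 2.92, 3.74 and 3.84 CPM in TGFβ1-treated libraries. The mean rose from 1.27 ± 0.339 to 3.34 ± 0.520 CPM (SD, n = 4), with a log2 fold change of 1.40 and a standard error of 0.193 (edgeR FDR = 3.05e-13). Ccl5 and Ccl9 thus had nearly the same estimate of change. Per 100 reads of Ccl5 there were 37.0, 40.7, 40.0 and 32.4 reads of Ccl9 in untreated and 36.6, 40.8, 29.7 and 46.0 in TGFβ1-treated libraries. The ranges overlapped, and the mean log2 ratio went from -1.40 ± 0.15 to -1.40 ± 0.27 (SD, n = 4), with an exact permutation p of 1.

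Ccl17 had the largest fold difference among the 9 members, from a level close to none. Ccl17 (ENSMUSG00000031780, GRCm38 chr8:94810453-94812036, plus strand), also called TARC, attracts T cells that carry Ccr4. The untreated libraries held 0, 0, 3 and 1 reads and the TGFβ1-treated libraries 28, 20, 22 and 29. In CPM this was 0, 0, 0.131 and 0.0507 in untreated and 1.51, 0.973, 1.08 and 1.12 in TGFβ1-treated libraries. With 99 reads against 4 in all, the ratio per normalized library size was 26.2, with an exact 95% interval of 9.90 to 97.9 for counting error alone (edgeR FDR = 2.30e-24). edgeR's fitted log2 fold change was 4.54 and depended on the few untreated reads: it was 3.21 with a prior count of 2, and 5.82 without the third untreated library. All 4 TGFβ1-treated libraries were well above the highest untreated one.

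Ccl20 and Ccl28, both known as ligands made by mucosal epithelia, were the members with lower levels after TGFβ1. Ccl20 (ENSMUSG00000026166, GRCm38 chr1:83116766-83119167, plus strand) is the chemokine ligand of Ccr6 on T helper 17 cells, B cells and dendritic cells. It was at 8.66, 8.26, 8.94 and 6.43 CPM in untreated and at 4.86, 3.50, 4.67 and 5.27 CPM in TGFβ1-treated libraries. The mean went from 8.07 ± 1.13 to 4.58 ± 0.760 CPM (SD, n = 4), a log2 fold change of -0.82 with a standard error of 0.141 (edgeR FDR = 1.34e-08). No TGFβ1-treated library reached the lowest untreated one.

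Ccl28 (ENSMUSG00000074715, GRCm38 chr13:119623819-119654359, plus strand), which attracts plasma cells through Ccr10, was a low transcript throughout. It had 11, 17, 15 and 18 reads in untreated and 3, 3, 5 and 6 reads in TGFβ1-treated libraries. The latter lie at or just above the floor of 3 reads. The corresponding levels were 0.530, 0.638, 0.654 and 0.912 CPM in untreated and 0.162, 0.146, 0.246 and 0.233 CPM in TGFβ1-treated libraries. Over all libraries, 17 reads stood against 61, so Ccl28 was 3.39-fold lower, with an exact 95% interval of 1.96 to 6.20 for counting error. The log2 fold change was -1.74 with a standard error of 0.403 (edgeR FDR = 3.52e-06).

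For Ccl25, no significant change was found. Ccl25 (ENSMUSG00000023235, GRCm38 chr8:4325210-4360020, plus strand), the ligand of Ccr9 known from thymus and small intestine, was at 7.03, 7.58, 7.85 and 7.14 CPM in untreated and at 8.16, 8.75, 8.21 and 7.87 CPM in TGFβ1-treated libraries. The highest untreated and the lowest treated library were almost equal. The log2 fold change was 0.15 with a 95% interval of -0.04 to 0.34 (edgeR FDR = 0.142), so a rise above 0.34 lay outside the interval. Of the exons of Ccl25, 204 bases (2.74%) overlap Elavl1 on the opposite strand, and the use of strand in counting is not given in the sources used here. Elavl1 went the other way, from 142 ± 3.92 to 131 ± 2.96 CPM (SD, n = 4), with a log2 fold change of -0.11 (edgeR FDR = 0.00776).

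To rank the members against each other, their levels were divided by the joined length of all annotated exons of each gene. This length was 7445 bases for Ccl25 and 511 for Ccl8. It can exceed that of the transcripts present, which were not determined. The places of Ccl25, Ccl28 and Ccl9, with long annotated exons, thus depend on the annotation. The order of Ccl2 (1138 bases) and Ccl7 (801 bases) also depends on these lengths, and by reads Ccl2 stood above Ccl7 in every library. In untreated SV-LECs, Ccl7 at 88.6 ± 5.04 and Ccl2 at 85.4 ± 9.51 CPM per kb led and overlapped (SD, n = 4 here and below). Ccl20 at 5.68 ± 0.795 and Ccl5 at 3.50 ± 0.783 followed, with overlapping ranges. Then came Ccl8 at 1.25 ± 0.148 and Ccl25 at 0.994 ± 0.0516, which also overlapped, Ccl9 at 0.416 ± 0.111, and then Ccl28 at 0.141 ± 0.0335 and Ccl17 at 0.0883 ± 0.120 CPM per kb, again with overlapping ranges. The order had thus a wide step between the pair at its head and all other members. In TGFβ1-treated SV-LECs, Ccl2 at 224 ± 11.1 CPM per kb lay above Ccl7 at 196.5 ± 11 without overlap. Ccl5 at 9.35 ± 2.56 was next and stood apart from Ccl20 at 3.22 ± 0.535. Ccl17 at 2.28 ± 0.458 overlapped both Ccl20 and Ccl8 at 1.86 ± 0.138, and Ccl25 at 1.11 ± 0.0495 overlapped Ccl9 at 1.10 ± 0.171 CPM per kb. Ccl28 was last, at 0.0406 ± 0.0103 CPM per kb, while Ccl17 had moved above Ccl8, Ccl25 and Ccl9 in the order of means.

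Promoter sequence was available from RefSeq (GRCm38.p6) for 6 members, Ccl8, Ccl9, Ccl17, Ccl20, Ccl25 and Ccl28, as 250 bases before to 50 after a start site. These were searched on both strands for the NF-κB consensus, for the AP-1 motif TGANTCA, and for CAGAC, a longer form of the SMAD element. Ccl9, Ccl20 and Ccl17 are shown because they hold the NF-κB matches and the most CAGAC matches, and because Ccl9 and Ccl17 rose while Ccl20 fell. Each line gives the 200 bases before the start site, 5′ to 3′ on the strand of the gene, with matches in capitals, from chr11:83578637-83578836 (minus strand), chr1:83116566-83116765 and chr8:94810253-94810452 (plus strand).
Ccl9: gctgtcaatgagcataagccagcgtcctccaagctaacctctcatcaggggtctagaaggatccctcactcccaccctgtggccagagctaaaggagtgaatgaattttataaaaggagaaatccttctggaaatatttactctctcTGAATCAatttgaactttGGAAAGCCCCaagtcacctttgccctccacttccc
Ccl20: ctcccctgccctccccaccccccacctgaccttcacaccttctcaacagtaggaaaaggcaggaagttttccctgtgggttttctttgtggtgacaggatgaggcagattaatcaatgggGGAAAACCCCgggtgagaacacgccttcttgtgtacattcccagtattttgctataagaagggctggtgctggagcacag
Ccl17: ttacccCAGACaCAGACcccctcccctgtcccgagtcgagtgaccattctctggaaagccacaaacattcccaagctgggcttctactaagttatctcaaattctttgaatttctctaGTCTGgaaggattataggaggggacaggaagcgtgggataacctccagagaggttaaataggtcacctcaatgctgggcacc

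The NF-κB consensus, read on the opposite strand, began 35 bases before the start of Ccl9 and 80 bases before that of Ccl20, while 4.51% of 32851 RefSeq promoters of the same length held a match. TGANTCA was found 53 bases before the start of Ccl9 and 21 bases after that of Ccl28, and 7.81% of the promoters held it. CAGAC, present in 49.6% of the promoters, occurred at 3 places before the start of Ccl17 and once each in Ccl8, Ccl28 and the upstream promoter of Ccl25. The motifs did not overlap one another. The same consensus was thus found in a member that rose and in a member that fell, and a match of letters is a description of the sequence, not a measured binding site.

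The other 15 CC chemokine ligand genes were mostly silent at this depth. Ccl1, Ccl3, Ccl19, Ccl21a, Ccl21b, Ccl21c, Ccl24, Ccl26 and Ccl27b had no read in any library. For Ccl1, Ccl3, Ccl24 and Ccl26, this allows at most the floor of 3 reads in each library. Ccl19, Ccl21 and Ccl27 genes share stretches as long as a read with copies, so reads that fit several copies may be missing from their counts. For those of them without a read, no such limit can be given. Ccl4, Ccl12 and Ccl22 had at most 2 reads in a library. The eosinophil attractant Ccl11 had 1, 3, 4 and 1 reads in untreated and 1, 2, 0 and 1 in TGFβ1-treated libraries. Ccl6 had 0, 3, 4 and 0 reads in untreated and 7, 3, 3 and 3 in TGFβ1-treated libraries. The single other gene that could be tested was Ccl27a, counted in a row that joins it with 3 other names, at 3.27 ± 0.138 in untreated and 3.37 ± 0.0872 CPM in TGFβ1-treated libraries (SD, n = 4). Its log2 fold change was 0.04 with a standard error of 0.128 (edgeR FDR = 0.780).

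Of 15 genes for CC chemokine receptors and atypical receptors, 3 passed the filter on low counts, 2 were significantly higher and none was significantly lower, beside 37.6% higher and 38.0% lower among all genes tested. Ackr4, a scavenger of Ccl19, Ccl21 and Ccl25, had 4 to 6 reads in untreated and 17 to 35 in TGFβ1-treated libraries, with a log2 fold change of 2.46 and a standard error of 0.383 (edgeR FDR = 4.48e-13), and it passed the filter only through the TGFβ1-treated libraries. Ackr3, a scavenger of the CXC chemokine Cxcl12, rose from 2.30 ± 0.369 to 3.87 ± 0.562 CPM (SD, n = 4), a log2 fold change of 0.75 (edgeR FDR = 3.01e-06). Ccrl2, which binds chemerin, was not called, with a log2 fold change of -0.11 (edgeR FDR = 0.704). The signalling receptors Ccr1, Ccr2, Ccr4, Ccr6, Ccr8, Ccr9 and Ccr10, on which members act, had at most 4 reads in any library. RNA for the ligands was thus measured in cells with hardly any RNA for these signalling receptors.

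All 25 listed regulators of chemokine transcription and mRNA decay were tested, and 13 were significantly higher, 5 significantly lower and 7 not called, with a median log2 fold change of 0.26. This stands beside 75.6% of all genes called in either direction, so the share called in this list was close to that of all genes. The 3 largest rises were those of Tnfaip3, which restrains NF-κB signalling, Zc3h12a, an RNase that degrades inflammatory mRNAs, and the interferon regulator Irf7. Tnfaip3 rose from 29.7 ± 1.87 to 83.1 ± 5.68 CPM (SD, n = 4), a log2 fold change of 1.48 (edgeR FDR = 2.98e-115). Zc3h12a rose from 33.5 ± 1.65 to 73.2 ± 0.478 CPM (log2 fold change 1.12, edgeR FDR = 3.40e-108), and Irf7 from 43.4 ± 9.02 to 89.6 ± 10.3 CPM (log2 fold change 1.04, edgeR FDR = 6.05e-16). The 3 largest falls were those of Cebpb (log2 fold change -0.77, edgeR FDR = 0.00120) and Cebpd (log2 fold change -0.61, edgeR FDR = 0.0343), for which the groups overlapped, and of the NF-κB subunit Relb (log2 fold change -0.32, edgeR FDR = 2.23e-05). The call of Cebpd was lost with edgeR's quasi-likelihood test (FDR = 0.0578) and with DESeq2 (adjusted p = 0.200).

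Secreted and membrane proteases trim chemokines and change their activity. Of 9 such genes, 8 were tested, of which 5 were significantly higher, 1 significantly lower and 2 not called. Their median log2 fold change was 0.54, and 75.6% of all genes tested were called in either direction. Mmp9 and Fap passed the filter on low counts only through the TGFβ1-treated libraries, and Dpp4 only through the untreated ones. These counts and the median are therefore a description. The gelatinase Mmp9 rose from 0.420 ± 0.171 to 16.9 ± 2.52 CPM (SD, n = 4), a log2 fold change of 5.28 (edgeR FDR = 5.78e-159). The membrane protease Mmp14 was abundant and rose from 730.3 ± 19.2 to 1648 ± 36.6 CPM (log2 fold change 1.17, edgeR FDR = 9.40e-199), and Fap rose from 0.339 ± 0.0732 to 0.857 ± 0.144 CPM (log2 fold change 1.37, edgeR FDR = 1.06e-05). Dpp4, which removes the first residues of many chemokines, Ccl5 among them, went from 42 to 66 reads in untreated to 3 to 10 reads in TGFβ1-treated libraries. Its log2 fold change was -3.12 with a standard error of 0.323 (edgeR FDR = 1.51e-32).

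The chemokine genes on chromosome 11 were then set beside their neighbours, defined as genes within 500 kb of a member. Of 66 such genes, 27 had no read in any library and 13 were tested, of which 7 were significantly higher, 2 significantly lower and 4 not called, beside 37.6% higher and 38.0% lower among all genes tested. The share called was thus no greater than the 75.6% of all genes. Their median log2 fold change was 0.16, compared to -0.01 for all genes tested. All of the tested neighbours lay around Ccl5 and Ccl9. None of the 13 neighbours of Ccl2, Ccl7 and Ccl8 passed the filter, so that these members stood in a stretch without other measured genes, and the nearest tested gene, Cct6b, was 602451 bases from Ccl8 and not called (log2 fold change 0.42, standard error 0.280, edgeR FDR = 0.161).

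Around Ccl5 and Ccl9, genes that rose and genes that fell lay side by side. Taf15, an RNA-binding protein gene 19035 bases from Ccl5, fell from 142 ± 12.9 to 95.8 ± 1.49 CPM (SD, n = 4), a log2 fold change of -0.57 with a standard error of 0.0595 (edgeR FDR = 6.32e-21). Mmp28, the gene of the metalloprotease epilysin, rose from 1.69 ± 0.249 to 4.16 ± 0.499 CPM, with a log2 fold change of 1.29 (edgeR FDR = 1.44e-16). The schlafen gene Slfn2, at the edge of the window, rose from 10.4 ± 3.48 to 33.2 ± 3.04 CPM, with a log2 fold change of 1.67 (edgeR FDR = 9.91e-19). Slfn10-ps, a schlafen pseudogene, had a log2 fold change of 0.76 (edgeR FDR = 1.15e-09), and reads shared with other schlafen genes were not tested. The other significant fall was that of AA465934, with a log2 fold change of -0.21 and overlapping groups (edgeR FDR = 0.0213), a call lost with DESeq2 (adjusted p = 0.0540). The gene next to Ccl9, E230016K23Rik, was 3420 bases away and had a log2 fold change of -0.28 (edgeR FDR = 0.0596), and was named here after its values were seen.

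**Figure D4:**
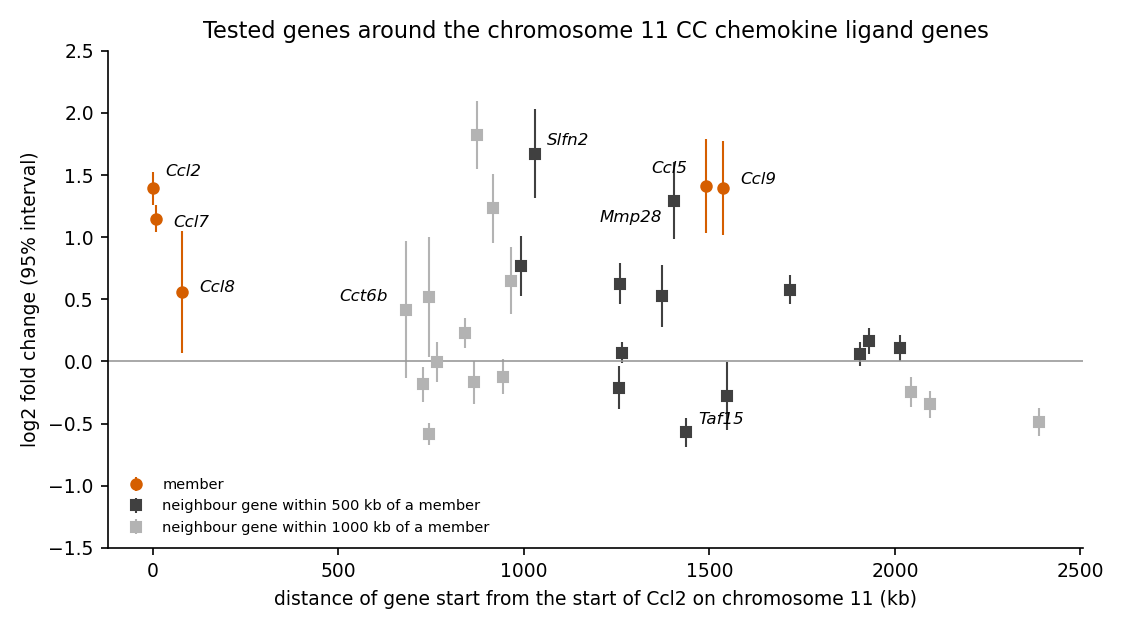
Log2 fold change with its 95% interval of each tested gene around the chromosome 11 members, by the distance of its start from that of Ccl2 in kb. Orange circles are the 5 members, dark squares neighbours within 500 kb of a member and pale squares those within 1000 kb. Ccl2, Ccl7 and Ccl8 have no tested neighbour within 500 kb, and Ccl5 and Ccl9 stand at 1.41 and 1.40 close to Taf15 at -0.57.

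On chromosome 8, Ccl17 shares its stretch with Ccl22, the other ligand of Ccr4, and with Cx3cl1, the gene of fractalkine. Ccl22, 58754 bases from Ccl17, had no read in any untreated library and 0, 2, 1 and 0 reads in the TGFβ1-treated libraries. Cx3cl1, 28026 bases from Ccl17, had 59 to 88 reads in untreated and 611 to 854 reads in TGFβ1-treated libraries (log2 fold change 3.45, edgeR FDR = 2.72e-227). Ciapin1 and Coq9, which lie closer to Ccl17 than Cx3cl1 does and were named after their values were seen, were not called, with log2 fold changes of -0.08 (edgeR FDR = 0.0873) and -0.03 (edgeR FDR = 0.606). Ccl17 and Cx3cl1 thus rose beside genes without a called change.

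For Ccl2, the most abundant member by reads, the genes with the most similar profile of log2 CPM over the 8 libraries were Fgfbp3 (Pearson r = 0.9993), Ccng1 (r = 0.9988) and Gsn (r = 0.9987). Their log2 fold changes were 3.56, 1.35 and 1.11. A total of 2388 genes had an r above 0.95 with Ccl2, and since the 8 libraries fall into the 2 groups, such values describe mainly the shared step between them.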

How the data were processed

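Poly(A) RNA from 4 untreated and 4 TGFβ1-treated SV-LEC samples was sequenced by the authors (TruSeq Stranded mRNA kit, single-end reads of 75 bases). The submitters' processing notes name bcl2fastq 2.20.0.422, STAR 2.7.3a, featureCounts 1.5.1 and GRCm38. The authors deposited raw counts of reads per gene, without normalization. The annotation release and the use of strand in counting are not given in the sources used here. Samples were grouped by their treatment label.

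The comparison was run with edgeR 4.0.16 under R 4.3.3 (filterByExpr, TMM, estimateDisp, glmFit and glmLRT), the test that the study names, with a Benjamini-Hochberg FDR under 0.05 over 13818 genes. The scripts were tested on simulated data. Ratios of members were compared by exact two-sided permutation with a pseudocount of 0.5. Positions, exon lengths and coding sequence came from GENCODE M21, which matched 55230 of 55471 genes. Spread within groups exceeded sampling noise (chi-square over degrees of freedom 2.37 to 7.84).

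Members and lists (other CC ligands, receptors, regulators, proteases, markers) were chosen with earlier results of these data known. All members were named, and from each list and the chromosome 11 neighbours the tested genes with the 3 largest significant log2 fold changes in each direction. Alternatives were the quasi-likelihood test, DESeq2 1.42.0 and its size factors, total counts only, other filters, a prior count of 2, an FDR of 0.01, the replicate block, windows of 250 and 1000 kb, a pseudocount of 1, and each library left out. Some listed genes are not reported here.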

Additional observations from a re-analysis of the deposited data

How the results depend on the processing

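The direction of each of the 9 members was kept under every alternative in which it was tested. The calls of Ccl2, Ccl5, Ccl7, Ccl9, Ccl17, Ccl20 and Ccl28 were kept wherever they could be computed. Requiring 1 CPM in 4 libraries removed Ccl8, Ccl17 and Ccl28, leaving 4 members higher and 1 lower. The log2 fold change of Ccl8 no longer passed with DESeq2 (0.56), with total counts only (0.49), without the filter on low counts (0.53) and at an FDR of 0.01 (0.56). Leaving out 1 library gave 0.48 to 0.60 for Ccl8, and its call was lost without untreated replicate 1 or TGFβ1-treated replicate 2, 3 or 4 (edgeR FDR 0.0514 to 0.0899). With a replicate block, which pairs libraries by number, Ccl8 had a log2 fold change of 0.56 (edgeR FDR = 0.0371), 6 members were higher and 2 lower, and no member's call changed. Deviations of same-numbered libraries from their group means had correlations of -0.10, -0.06, -0.03 and -0.19. Those of differently numbered libraries were between -0.23 and 0.25. No sign of pairing by number was thus seen, but the labels do not state it and 4 libraries per group cannot settle it.

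Over all genes, 4627 to 6385 were higher and 4789 to 5899 lower under the alternatives. Within 250 kb of the chromosome 11 members 4 neighbours were higher, and within 1000 kb 12 were higher and 7 lower. At an FDR of 0.01 there was 1 lower neighbour, and leaving out 1 library gave 1 to 2, with 1 left without untreated replicate 2 or TGFβ1-treated replicate 1. The log2 ratio of Ccl9 to Ccl5 changed sign with a pseudocount of 1 (-0.0047), and leaving out 1 library gave -0.0889 to 0.121, with -0.0625 without untreated replicate 4, -0.0319 without TGFβ1-treated replicate 2 and -0.0889 without TGFβ1-treated replicate 4. With 1 library left out, the exact test of a ratio cannot go below p = 0.0571, so only the values are given. Among the other named genes, Cebpd and AA465934 lost their calls under 8 and 6 alternatives. Members with under 30 reads per library, Ccl8, Ccl17 and Ccl28, are limited by depth.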
